A study of Mus musculus with 2 samples.

Results

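The genes described here are 10 genes of fatty acid uptake and binding, namely the cytosolic fatty acid binding proteins Fabp3, Fabp4 and Fabp5, the membrane proteins Cd36, Slc27a1 and Slc27a4, lipoprotein lipase (Lpl) with its regulators Gpihbp1 and Angptl4, and the lipoprotein receptor Vldlr. They were found by their symbols, and all 10 were among the 23361 rows with values, of 27324 rows in the table. The set was chosen by function with the levels at both stages already known, among them a low D7 level of Fabp3 and a high one of Fabp4, so the differences between stages below are a description and support no claim on the set.

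The 2 RNA-Seq libraries, 1 for each stage, were made from brown preadipocytes (D0) and from the brown adipocytes they gave rise to (D7). The cells were taken from the brown adipose tissue between the shoulder blades (interscapular) of newborn C57BL/6 mice, given as C57BL/6J in the methods of the study. By the labels, the D0 cells had been held in medium with serum, insulin and T3 before induction, whereas the methods name insulin and T3 only from induction on. The D7 cells had been induced with IBMX, dexamethasone and indomethacin and then kept in the medium with insulin and T3 up to day 7. The labels name primary cultures, whereas the methods of the study describe cells immortalized with large T, and whether the cells of several animals were pooled was not stated. The amounts of insulin, dexamethasone and serum also differ between the labels and the methods. The spread between cultures is unknown with a single library for each stage, no p-value was computed, and every difference is one between 2 libraries.

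Fatty acids reach an adipocyte mainly from circulating triglyceride. Lipoprotein lipase, held on the capillary wall by GPIHBP1, splits the triglyceride, and ANGPTL4 inhibits the enzyme. CD36 and the fatty acid transport proteins of the SLC27 family help fatty acids across the plasma membrane, where the SLC27 proteins also couple them to coenzyme A. FABP proteins then carry them through the cytosol, and the VLDL receptor binds triglyceride-rich particles.

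The values were FPKM, that is, fragments scaled to transcript length and to sequencing depth, as deposited. Since FPKM is per length, levels of different genes can be set side by side. The fragments behind each value were recovered from the steps of low values in genes with a single exon, which gave 21475369 fragments as the denominator at D0 and 18263539 at D7. In this fit the length behind the FPKM was shorter than the transcript, by 180 bases at D0 and 183 at D7. Fragments of genes with several exons are approximate. Intervals are exact 95% intervals on these fragments, and they cover counting error only. In 14986 genes both libraries had an FPKM above 0. Adipocyte markers were on the side of the labels, with 7 of 10 higher at D7, the other 3 (Lep, Ucp1 and Elovl3) listed at 0 at D0 only, and a summed FPKM of 12.6 at D0 and 4811 at D7. Preadipocyte markers summed to 1376 at D0 and 860 at D7, with Pdgfrb and Thy1 lower and Cd34, Dlk1 and Zfp423 higher (the calls of Pdgfrb, Thy1 and Zfp423 were lost under some scalings described at the end).

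Of the 9 genes above 0 in both libraries, 7 reached a ratio of 2 or more (higher at D7), 1 was lower by at least the same factor and 1 was neither, and Gpihbp1 was listed at 0 in both. Over all genes above 0 in both libraries, 18.5% were higher by this threshold and 13.2% were lower. Nothing is read from the comparison with these shares, because the genes were selected on the same contrast. The same shares are the background for the counts of the gene lists below. The median log2 ratio of FPKM + 0.1 was 2.91 over the 9 genes and 0.03 over all genes. The summed FPKM of the 10 genes was 195 at D0, which was 0.0380% of the library's FPKM sum, and 18079 at D7, which was 3.46%. In bulk RNA, a larger number of cells that use a gene and more RNA per cell cannot be told apart.

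**Figure D1:**
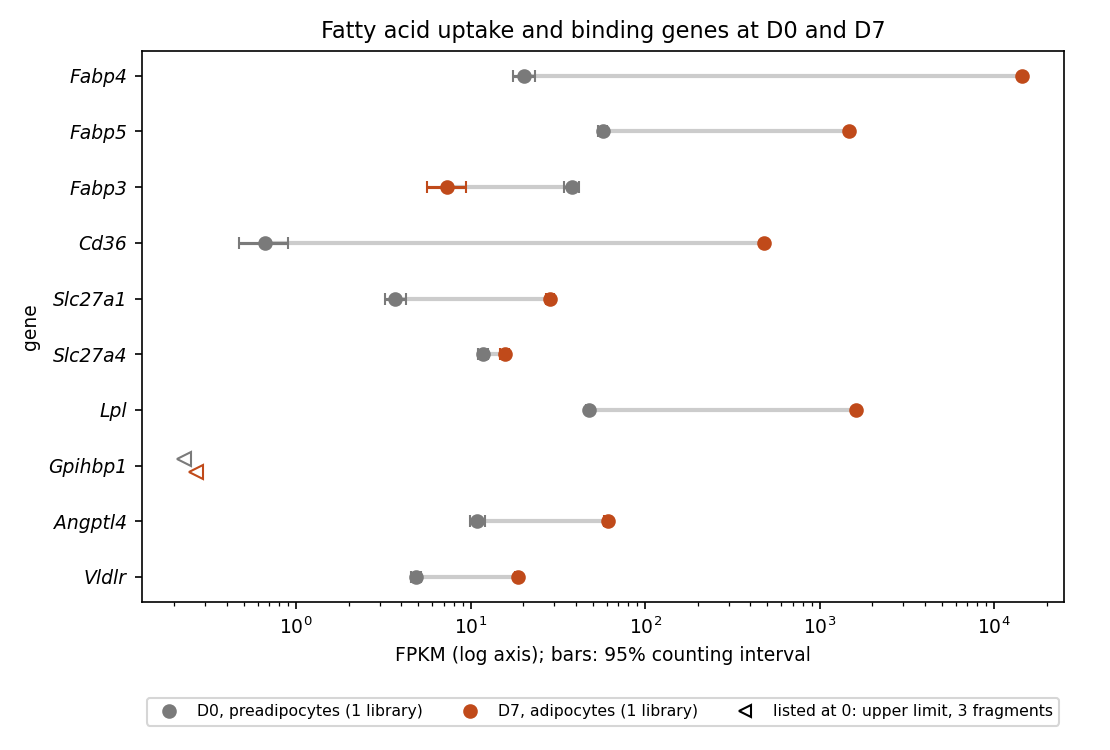
FPKM of the 10 genes at D0 (grey) and D7 (orange) on a log axis, with 1 library per point and bars for the 95% counting interval. Fabp4 ran from 20.3 to 14391 and Cd36 from 0.665 to 478, Fabp3 alone had its D7 point on the left, and the open triangles of Gpihbp1 mark the limit of 3 fragments.

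Fabp3, Fabp4 and Fabp5 are sister genes with different tissue bias. FABP3 is the heart and muscle form, FABP4 (aP2) the adipocyte form, and FABP5 the epidermal form, which adipocytes and macrophages also use. Their coding sequences were 63.6% identical between Fabp4 and Fabp3, 60.6% between Fabp4 and Fabp5 and 57.3% between Fabp3 and Fabp5, with no identical run longer than 14 bases between any pair. The stretch of 90 coding bases from the start of the study's aP2 qPCR primer pair shows how far apart they are. It lies in exons 2 and 3, spliced, with Fabp4 at chr3:10205321-10206017 (minus strand), Fabp3 at chr4:130312396-130313975 (plus strand) and Fabp5 at chr3:10015076-10015493 (plus strand), all in GRCm38. Capitals mark the bases that differ from Fabp4, 30 of 90 in Fabp3 and 38 of 90 in Fabp5.
Fabp4: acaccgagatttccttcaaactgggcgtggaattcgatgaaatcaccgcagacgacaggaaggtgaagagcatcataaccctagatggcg
Fabp3: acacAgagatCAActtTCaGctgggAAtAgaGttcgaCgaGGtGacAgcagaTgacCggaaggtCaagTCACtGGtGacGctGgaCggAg
Fabp5: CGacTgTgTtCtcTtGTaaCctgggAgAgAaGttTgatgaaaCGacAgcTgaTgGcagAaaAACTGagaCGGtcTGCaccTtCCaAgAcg
The primers themselves matched transcripts of 1 gene, Fabp4, with a product of 88 bp.
aP2 forward: acaccgagatttccttcaaactg
aP2 reverse: ccatctagggttatgatgctcttca
No stretch of 90 bases, the read length, was shared between any pair of the 3 genes with up to 5 mismatches, the limit of the study's alignment. Under that limit no read of one matches another.

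Fabp4 (ENSMUSG00000062515.3, chr3:10204342-10208576 in the deposited table, minus strand) had an FPKM of 20.3 at D0, from about 201 fragments. At D7 it had an FPKM of 14391, from about 120640 fragments. It was the highest gene of the D7 library, at rank 1 against rank 3711 at D0, and took 2.76% of the FPKM sum. The ratio of D7 to D0 was 710 (618 to 820), rank 26 among the ratios of all 14986 genes. At D7 there were 188 fragments for each base of the transcript, against 0.313 at D0. The authors removed duplicate reads before counting, and the effect of that step on a short transcript at such a depth was not tested.

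Fabp5 (ENSMUSG00000027533.10, chr3:10012584-10016610, plus strand) had an FPKM of 57.0 at D0 against 1462 at D7. The ratio was 25.7 (24.0 to 27.4), and its rank went from 1426 to 26 in the library. Fabp5 was thus the highest of the 10 genes at D0 and came after Fabp4 and Lpl at D7. Of its 90-base windows, 37.0% matched a transcript of 5 processed pseudogenes with up to 5 mismatches, and 10.4% matched exactly. How such reads were assigned was not stated, so the level is uncertain to that degree.

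Fabp3 (ENSMUSG00000028773.8, chr4:130308777-130315463, plus strand) had an FPKM of 37.9 at D0 (about 375 fragments) against 7.29 at D7 (about 61). The ratio was 0.192 (0.144 to 0.253), or 5.20-fold lower, at rank 14622 of 14986. It was the one gene of the 10 with a lower value at D7, and its counting intervals at D0 (34.1 to 41.9) and D7 (5.58 to 9.37) did not overlap. Of its 90-base windows, 56.7% matched the processed pseudogenes Fabp3-ps1 or Gm16179 with up to 5 mismatches, and 30.3% matched exactly. On the opposite strand, Zcchc17 shares 81 of the 823 exonic bases of Fabp3. The library preparation degraded the second cDNA strand, but whether strand was used in counting was not stated. Zcchc17 had an FPKM of 30.4 at D0 against 20.0 at D7, with a ratio of 0.659. The part of pseudogene and Zcchc17 reads in the Fabp3 values was not tested.

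FABP3 is also abundant in skeletal muscle, a tissue next to the interscapular depot. Of 10 skeletal muscle markers, 5 were above 0 in both libraries, and 0 of these were higher at D7 in the deposited values. Acta1 (45.4 at D0 and 1.73 at D7) and Tnnt3 (0.570 and 0.0672, from about 11 and 1 fragments) were lower. Des (5.74 and 3.03), Mylpf (0.647 and 0.956) and Myh3 were neither, and Mylpf passed 2-fold under a scaling described at the end. Myog and Tnnc2 were listed at 0 at D0 only, with about 1 fragment each at D7. The defining genes Myod1, Myf5 and Ckm were listed at 0 in both libraries. The list summed to 52.4 FPKM at D0 and 5.94 at D7, and most of the D0 sum was Acta1. The part of muscle cells in the Fabp3 values was not tested.

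The order of the 3 genes within a library changed with the stage. At D0 the FPKM of Fabp4 was 0.535 times that of Fabp3 and 0.356 times that of Fabp5. At D7 it was 1973 times that of Fabp3 and 9.85 times that of Fabp5. In the FABP family of 10 genes, the summed FPKM was 117 at D0 and 15861 at D7. Of this sum Fabp5 made up 48.8% at D0, Fabp3 32.4% and Fabp4 17.4%. At D7 Fabp4 made up 90.7%, Fabp5 9.22% and Fabp3 0.0460%. The FABP transcripts of the D0 library were thus divided among 3 genes, while those of the D7 library were nearly all Fabp4 and Fabp5. Counted as fragments, without correction for length, Fabp5 had 61.1% at D0 and Fabp4 85.4% at D7. The shares take the values as deposited. Pseudogenes matched 56.7% of the 90-base windows of Fabp3 and 37.0% of those of Fabp5, but 0% of those of Fabp4. None of these pseudogenes was listed in the table. The part of such reads was not tested, so the D0 order of the 3 genes is uncertain.

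**Figure D2:**
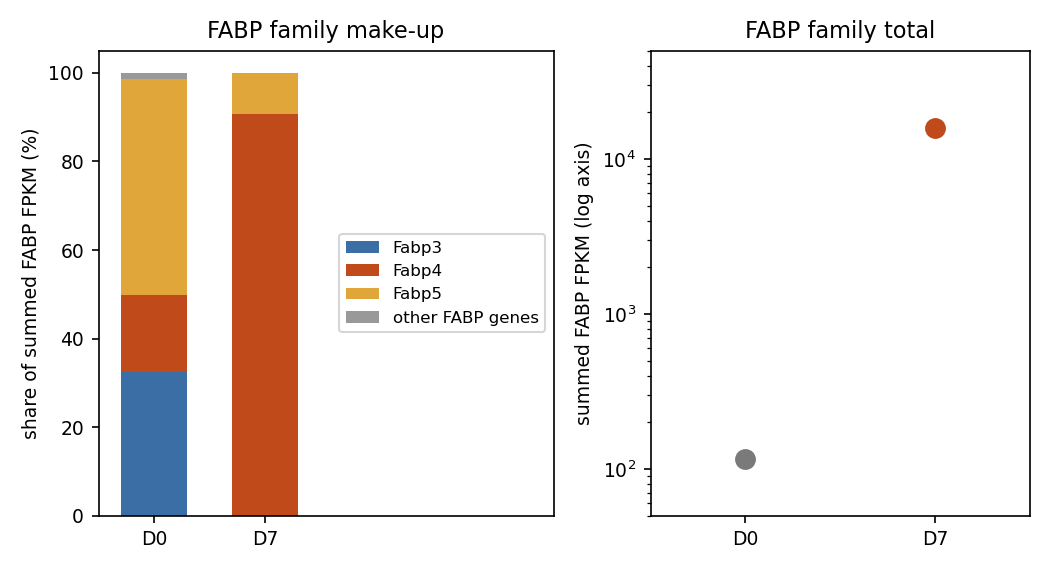
Share of each gene in the summed FABP FPKM (left, in %) and the summed FPKM itself (right, log axis) in the D0 and D7 libraries. Fabp5, Fabp3 and Fabp4 held 48.8%, 32.4% and 17.4% at D0, Fabp4 held 90.7% at D7, and the sum was 117 at D0 and 15861 at D7.

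The other 7 FABP genes were low. Fabp1, Fabp2, Fabp6 and Fabp9 were listed at 0 in both libraries. Fabp7, the brain form, had an FPKM of 1.44 at D0 against 0.283 at D7, from about 18 and 3 fragments, a ratio of 0.197 (0.0372 to 0.675). Pmp2, the myelin form, had 0.236 and 0.278, from about 6 fragments each. Fabp12 was listed at 0 at D0 and had 0.0705 at D7, about 3 fragments. Of the 5 FABP genes above 0 in both libraries, 2 were higher, 2 were lower and 1 was neither.

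Fabp4 and Fabp5 lie on chromosome 3 among 6 genes of the table that span 288599 bp. The gap between Fabp5 and Fabp4 was 187732 bp, and Gm9833, Pmp2 and Fabp9 lie within it. Gm9833 had an FPKM of 0.346 at D0 against 0.259 at D7, Pmp2 stayed under 0.3 in both libraries, and Fabp9 was at 0. The high D7 values of Fabp4 and Fabp5 were thus set apart by genes with few or no fragments. Fabp3 lies on chromosome 4.

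Genes with a pattern like that of Fabp4 were sought as the nearest in log2 FPKM at D0 and D7, over the 2 libraries. The nearest was Scd1, a fatty acid desaturase, with 64.9 at D0 and 10775 at D7 and a distance of 1.73. Hp, which encodes haptoglobin, followed with 7.19 and 3115 and a distance of 2.67, then Agpat2, an enzyme of triglyceride synthesis, with 14.5 and 1505 and a distance of 3.29. Fabp4 thus had no close neighbour. Around Fabp3 the nearest were Abi3bp (42.4 at D0 and 7.62 at D7) and Fkbp11 (34.2 and 7.81), both at a distance of 0.18. Likeness over 2 libraries says nothing of a shared function or control.

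Cd36 (ENSMUSG00000002944.15, chr5:17781689-17888959, minus strand), the fatty acid translocase, had an FPKM of 0.665 at D0 (about 40 fragments) against 478 at D7 (about 24717). The ratio was 719 (527 to 1006), which was rank 25 among all genes and overlapped in its interval with that of Fabp4. Its rank in the library went from 11805 to 179. Cd36 thus started as the lowest of the 9 detected genes and ended after Fabp4, Lpl and Fabp5. A pseudocount of 1 lowered the ratio to 288, since the D0 value was below 1.

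Slc27a1 (FATP1; ENSMUSG00000031808.7, chr8:71568926-71586708, plus strand) had an FPKM of 3.70 at D0 against 28.4 at D7, with a ratio of 7.67 (6.63 to 8.92). Slc27a4 (FATP4; ENSMUSG00000059316.2, chr2:29802679-29817522, plus strand) had 11.7 and 15.7, a ratio of 1.34 (1.23 to 1.46) that did not reach 2-fold. Within the library the FPKM of Slc27a4 was 3.17 times that of Slc27a1 at D0 and 0.553 times at D7. The more abundant transcript of this pair was thus Slc27a4 in the preadipocytes and Slc27a1 in the adipocytes. Cd36 had 0.0566 times the FPKM of Slc27a4 at D0 and 30.4 times at D7. Slc27a1 shared 2.99% of its 90-base windows with other genes, none of them exactly.

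None of the other SLC27 genes had a ratio above 1 in the deposited values. Slc27a6 had an FPKM of 2.18 at D0 against 0.589 at D7, with a ratio of 0.271 (0.168 to 0.421), which became 0.502 and lost the call when the ribosomal protein genes were set to a ratio of 1. Slc27a3 had 13.3 and 9.01, a ratio of 0.676 that turned to 1.25 with the ribosomal protein genes at 1. Slc27a2 was listed at 0 in both libraries, and Slc27a5 had about 1 fragment at D0 and 0 at D7. Of the 4 genes of this family above 0 in both libraries, 1 was higher, 1 lower and 2 neither. The median log2 ratio over the 5 genes above 0 in at least 1 library was -0.28 with a pseudocount of 0.1. It was 0.24 with values under 3 fragments set to that limit. Both medians are the value of Slc27a5 alone, which rests on about 1 fragment, so they describe no shift of the family.

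Of 9 genes of CD36 and its handling, 3 were higher at D7, 1 was lower and 5 were neither. Beside Cd36, the scavenger receptor Scarb1 had 17.8 at D0 against 70.7 at D7, with a ratio of 3.98, and Cav1, which encodes the coat protein of caveolae, had 83.1 and 585, a ratio of 7.03. Fyn, a kinase, had 32.3 and 11.99, a ratio of 0.371, which became 0.687 with the ribosomal protein genes at a ratio of 1. With that scaling 5 genes of the list were higher and 0 lower, beside 45.7% and 4.33% of all genes. The median log2 ratio was 0.21 as deposited.

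Lpl (ENSMUSG00000015568.16, chr8:68880554-68906932, plus strand) had an FPKM of 47.5 at D0 (about 3949 fragments) against 1618 at D7 (about 114259). The ratio was 34.0 (33.0 to 35.2), and its rank went from 1744 to 22. Lpl was the second most abundant of the 10 genes in both libraries, after Fabp5 at D0 and after Fabp4 at D7. Of its 90-base windows, 3.64% matched other genes.

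Gpihbp1 (ENSMUSG00000022579.10, chr15:75596657-75598213, plus strand) was listed at 0 in both libraries. A count of 0 allows up to 3 fragments, which is 0.226 FPKM at D0 and 0.267 at D7. GPIHBP1 is made by capillary endothelium. Of 12 endothelial markers, Tie1 and Cldn5 were listed at 0 in both libraries and Pecam1 had about 1 fragment in each, while Kdr (0.3003 and 0.655) and Tek (0.520 and 1.62) were higher at D7 and Cdh5, Esam and Egfl7 were lower (with about 2 and 1 fragments at D7 in Cdh5 and Esam), of which Kdr, Esam and Egfl7 lost the call under another scaling. Flt1 was the endothelial marker with the most fragments, about 491 at D0 and 340 at D7, with 3.75 and 3.05 FPKM. The list summed to 9.31 FPKM at D0 and 7.36 at D7. Lpl transcripts were thus abundant in cultures in which its endothelial anchor was not detectable at this depth.

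Angptl4 (ENSMUSG00000002289.16, chr17:33774899-33781575, minus strand), the secreted inhibitor of the lipase, had an FPKM of 10.9 at D0 against 60.8 at D7, with a ratio of 5.57 (5.00 to 6.21). The FPKM of Lpl was 4.35 times that of Angptl4 at D0 and 26.6 times at D7. Both genes were higher at D7, Lpl by the larger ratio.

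Of 17 genes of the lipase system, 7 were higher at D7 and 0 were lower among the 11 above 0 in both libraries, and the median log2 ratio was 1.81 over the 15 above 0 in at least 1. Apolipoproteins were among the higher ones. Apoe, a ligand of lipoprotein receptors, had 22.8 at D0 against 472 at D7, with a ratio of 20.7 (19.0 to 22.7). Apoc2, the activator of the lipase, had 0.309 and 4.76, from about 3 and 39 fragments, a ratio of 15.4 (4.89 to 77.8). Apoc1 was listed at 0 at D0 and had 435 at D7, at least 1096-fold higher than the FPKM of 3 fragments, and Apoc3, an inhibitor, was listed at 0 and had 33.9, at least 83.6-fold higher. Genes of inhibitors (Angptl4 and Apoc3) and of the activator (Apoc2) were thus all higher at D7.

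The rest of the lipase system was mixed. The lipase maturation factor gene Lmf1 had 15.6 at D0 against 20.4 at D7, with a ratio of 1.31, and Sel1l, which helps the enzyme out of the endoplasmic reticulum, had 43.3 and 37.8, a ratio of 0.874. The sign for Sel1l turned when the ribosomal protein genes were set to a ratio of 1, as did that of Lmf2 and Furin. Pcsk6, a convertase that cleaves the lipase, had 9.09 and 32.1, a ratio of 3.54, and the endothelial lipase Lipg had 0.542 and 1.34, a ratio of 2.46 that fell to 1.93 and lost the call in 1 setting. Angptl8, listed under an older symbol at a locus that also spans neighbouring genes, had 0.272 and 5.85, from about 4 and 73 fragments, a ratio of 21.5 (8.07 to 81.2).

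Vldlr (ENSMUSG00000024924.14, chr19:27217019-27254231, plus strand) had an FPKM of 4.85 at D0 against 18.7 at D7, with a ratio of 3.86 (3.57 to 4.19). Of 15 genes of the lipoprotein receptor family, 4 were higher at D7, 3 lower and 7 neither, and Lrp1b was listed at 0 in both. The counts of higher and lower genes became 7 and 1 with the ribosomal protein genes at a ratio of 1. Over all genes that scaling gave shares of 45.7% and 4.33%. The counts of the list became 3 and 4 with values under 0.01 raised to 0.01 and each library divided by its median. The largest ratio was that of Sorl1, a sorting receptor, with 0.303 at D0 and 21.6 at D7 (ratio 71.4, 53.0 to 98.5), and the smallest that of Lrp8, with 2.28 and 0.277 (ratio 0.122, 0.0611 to 0.220). The median log2 ratio of the family was 0.17.

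**Figure D3:**
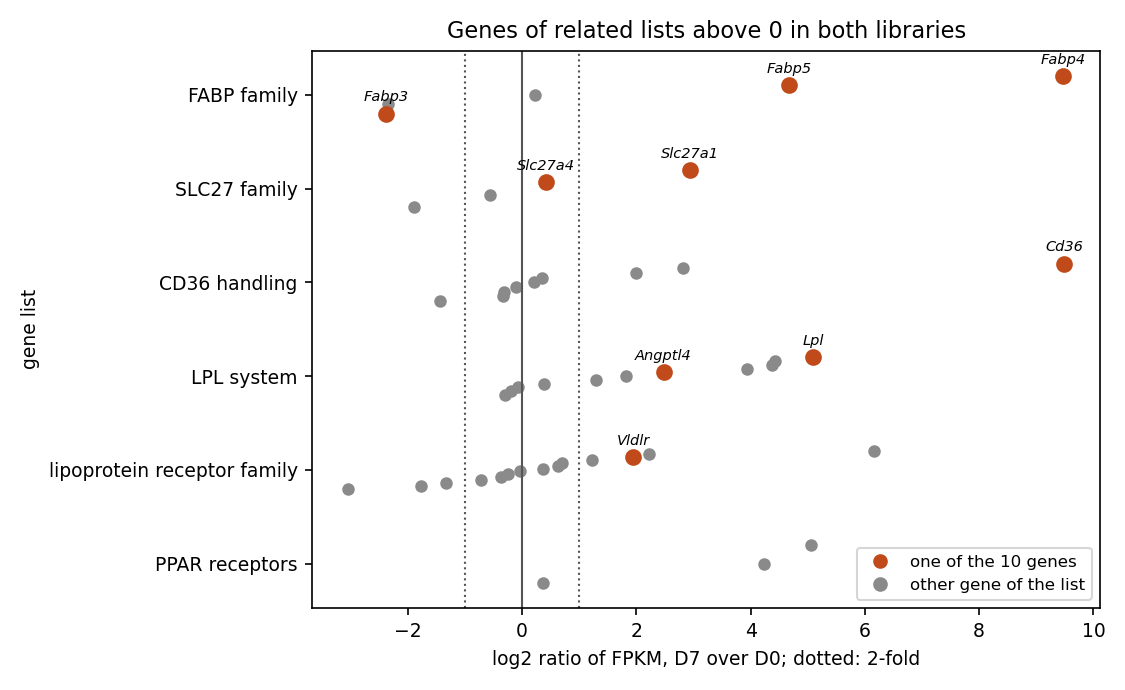
Log2 ratio of FPKM, D7 over D0, for each gene above 0 in both libraries in 6 lists, with the 10 genes in orange and the others of each list in grey; the vertical offset only separates the points. Fabp4 and Cd36 lay past 9, Fabp3 at -2.38 beside Fabp7, and Vldlr between 1 and 2 in a family with values on both sides of 0.

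PPAR nuclear receptors, of which several genes of lipid uptake are known targets, were also measured. Pparg, the main regulator of the adipocyte program, had an FPKM of 3.83 at D0 against 128 at D7, with a ratio of 33.5 (28.1 to 40.1). Ppara, a regulator of fatty acid oxidation, had 0.219 and 4.11, a ratio of 18.8 (11.2 to 34.1). For Ppard the ratio was 1.29 (0.969 to 1.73), with 18.6 and 24.0. The Ppard interval rests on about 95 and 103 fragments, recovered with a transcript length of 417 bases. With a longer transcript the fragments would be more and the interval narrower. Pparg and Ppara were thus the receptors past 2-fold at D7 in the deposited values, and Ppard joined them with 2.40 when the ribosomal protein genes were set to a ratio of 1.

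Among other intracellular lipid binding proteins, 12 of 13 listed genes were in the table, with 3 higher at D7, 3 lower and 3 neither among the 9 above 0 in both libraries. The acyl-CoA binding proteins Dbi (211 at D0 and 1307 at D7) and Acbd4 (8.003 and 41.5) and the sterol carrier protein Scp2 (50.4 and 284) were higher. The carriers of retinoic acid, Crabp1 (154 and 2.06, ratio 0.0134) and Crabp2 (14.3 and 1.14, ratio 0.0798), were among the lower ones. The carriers lower at D7 thus included Fabp3, Fabp7, Crabp1 and Crabp2.

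Promoters of 300 bases (250 before the start and 50 after), taken from RefSeq (GRCm38.p6), were matched for 5 of the 10 genes, Cd36, Fabp3, Slc27a1, Slc27a4 and Vldlr, with 8 starts. The promoters at both ends of the range of ratios are shown, with the matches searched in capitals. The letters AGGTCA, the core element that nuclear receptors such as PPAR bind, and CCAAT were searched on both strands, and these patterns do not overlap. The first was in 16.3% and the second in 37.4% of 32851 promoters of the same length.
Cd36, chr5:17835847-17836146, minus strand: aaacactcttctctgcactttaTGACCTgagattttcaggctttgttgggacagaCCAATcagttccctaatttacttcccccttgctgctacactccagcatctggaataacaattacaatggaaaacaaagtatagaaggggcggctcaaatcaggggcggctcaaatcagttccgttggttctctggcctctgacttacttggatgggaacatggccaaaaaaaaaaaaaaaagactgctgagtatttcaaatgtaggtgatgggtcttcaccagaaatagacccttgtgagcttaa
Fabp3, chr4:130308488-130308787, plus strand: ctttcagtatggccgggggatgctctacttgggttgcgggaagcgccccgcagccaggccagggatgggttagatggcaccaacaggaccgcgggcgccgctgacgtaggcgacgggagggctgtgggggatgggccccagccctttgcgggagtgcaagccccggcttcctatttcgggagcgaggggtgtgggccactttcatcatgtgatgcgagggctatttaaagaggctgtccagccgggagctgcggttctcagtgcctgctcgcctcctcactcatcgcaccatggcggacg
The Cd36 promoter held 1 match of AGGTCA, on its minus strand and starting at base -228 from the start, and 1 of CCAAT, starting at base -195. The Fabp3 promoter held neither in this window. Of the 8 promoters, that of Cd36 was the one with a match of AGGTCA. This Cd36 start lies inside the deposited locus, which extends upstream to base 17888959, and no promoter at that end was among those matched. A match is a run of letters and no evidence of binding.

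The position of the 10 genes among all genes was also described. At D0 the order by FPKM was Fabp5, Lpl, Fabp3, Fabp4, Slc27a4, Angptl4, Vldlr, Slc27a1, Cd36 and Gpihbp1, and of these neighbours the counting intervals of Slc27a4 (11.0 to 12.5) and Angptl4 (9.87 to 12.03) overlapped. At D7 the order was Fabp4, Lpl, Fabp5, Cd36, Angptl4, Slc27a1, Vldlr, Slc27a4, Fabp3 and Gpihbp1, with no overlap between neighbours. Fabp3 went from place 3 to place 9 and Cd36 from place 9 to place 4. The counting intervals do not cover reads that Fabp3 and Fabp5 may share with pseudogenes.

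**Figure D4:**
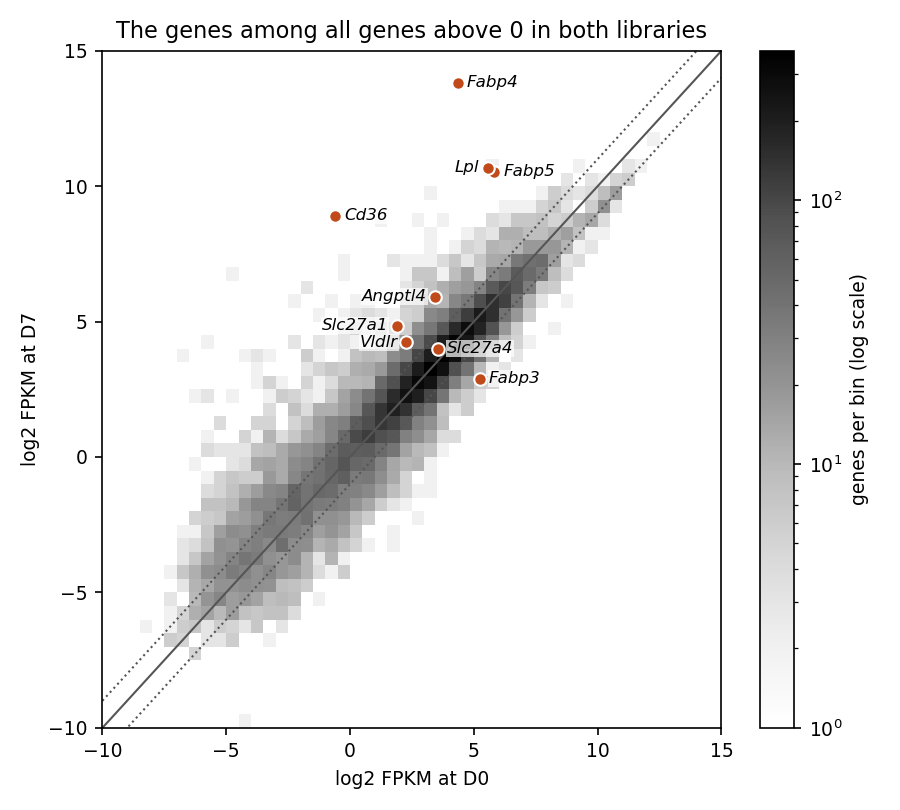
Log2 FPKM at D0 (x axis) against D7 (y axis) for the 14986 genes above 0 in both libraries, as a grey scale of genes per bin, with 9 of the 10 genes in orange; the solid line marks equal values and the dotted lines 2-fold. Fabp4, Lpl, Fabp5 and Cd36 lay far above the dotted lines at high D7 levels, and Fabp3 lay below them.

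Macrophages also express Cd36, Lpl, Fabp4, Fabp5 and Apoe. Of 12 macrophage markers, 11 were higher at D7, 0 were lower and Cd14 was neither, and none was listed at 0. The list summed to 156 FPKM at D0 and 585 at D7, with Lyz2 the highest gene (111 and 286). Adgre1, which encodes F4/80, had 1.40 and 14.3, Csf1r 2.63 and 10.4, and Mrc1 0.589 and 21.1. At D7 Fabp4 had an FPKM of 14391, while the macrophage list summed to 585 and the adipocyte list to 4811. These sums do not measure the part of either cell type in Fabp4. The part of macrophages in the values of the 10 genes was not tested.

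The ratios depend on how the libraries are set against each other. The 77 cytosolic ribosomal protein genes had a median ratio of 0.539, so setting them to 1 shifted every log2 ratio by 0.89. Under that scaling 45.7% of all genes were higher and 4.33% were lower, and Slc27a4 passed 2-fold with a ratio of 2.48. The other 8 genes above 0 in both libraries kept their calls under each of 10 alternative settings, 2 of them chosen after seeing the data. These 2 were the floor of 0.01 with the library median, and FPKM sums taken without Fabp4. The ribosomal scaling was preset for the 10 genes but chosen afterwards for the counts over all genes. Summing rows with the same symbol was among the settings and left every ratio as deposited. Apart from this and the pseudocounts, each setting multiplied all ratios of these genes by a common factor. The largest of these shifts, 0.89 in log2, was less than the distance of each of the 8 genes from its threshold. Such settings could therefore not have changed those calls. Over the 10 settings the ratio of Fabp3 lay between 0.151 and 0.357, that of Fabp4 between 556 and 1316, that of Fabp5 between 20.1 and 47.6 and that of Lpl between 26.7 and 63.1. For Cd36 the range was 288 to 1332, for Slc27a1 6.01 to 14.2, for Angptl4 4.36 to 10.3 and for Vldlr 3.03 to 7.17.

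**Figure D5:**
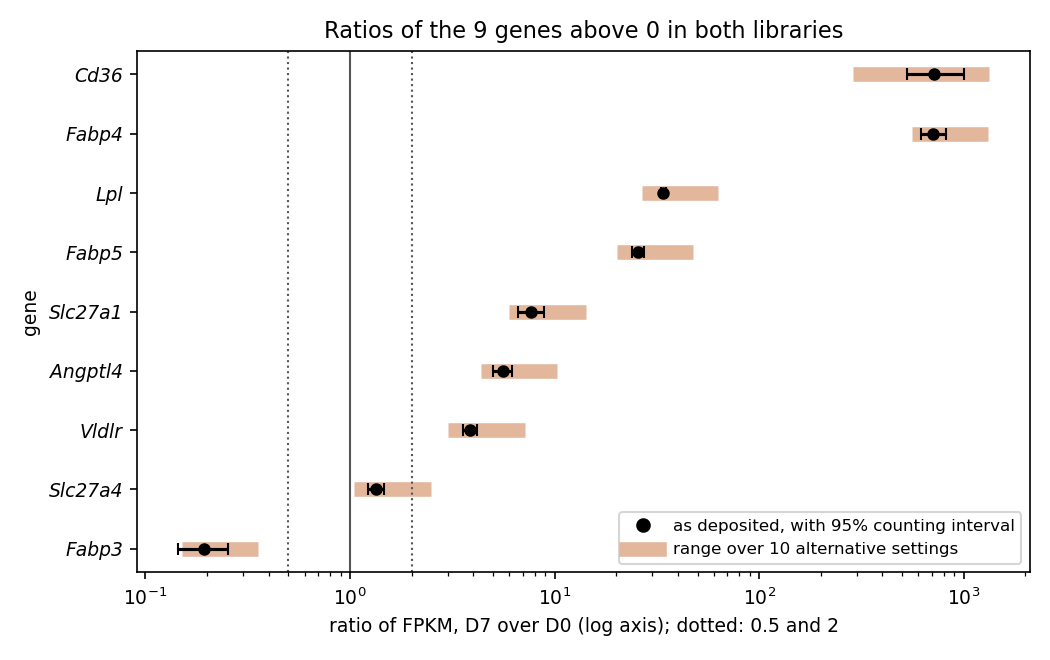
Ratio of FPKM, D7 over D0, for the 9 genes above 0 in both libraries on a log axis, with black points and bars for the deposited values and their 95% counting interval and shaded bars for the range over 10 alternative settings. The shaded bar of Slc27a4 (1.05 to 2.48) crossed the dotted line at 2, and that of Fabp3 (0.151 to 0.357) stayed below 0.5.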

How the data were processed

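RNA-Seq was analysed for brown preadipocytes (D0) and brown adipocytes (D7), with 1 library per stage. The authors removed adaptor, low-quality, duplicate and rRNA reads and deposited an FPKM for each gene in each library. The submitters' processing notes name Bowtie2 and mm10, whereas the methods of the study name SOAP2 with up to 5 mismatches. The second cDNA strand was degraded in library preparation, and the strand setting of the counting was not given in the sources used here. The 3963 rows without values were not used, and no column of values was left unmatched (0).

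Ratios of D7 to D0 were taken from the deposited FPKM, and at least 2-fold (or at most 0.5) was the call, as in the methods of the study. To recover fragments, genes with 1 exon (600 bp or longer, ends within 500 bp of the annotation) were used. At D0 79 values and at D7 89 values corresponded to 20 fragments or fewer, and 100% were whole within 0.1. The lengths of other genes came from GENCODE M21. Intervals at 95% are exact Clopper-Pearson intervals for ratios and exact Poisson intervals for levels. Read-length windows were searched with BLAST 2.17.0.

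The 10 genes and all lists were chosen with earlier results of these data known. Named are all 10 genes, list genes that answer a statement on their list, and the 3 nearest genes to Fabp4 and to Fabp3. Some genes that the rule would name are not reported here. The calls and intervals were tested on simulated data: 200 of 200 genes with changed levels and 3 of 11054 unchanged ones were called, and 98% of the intervals held the true ratio. The simulated counts held counting error alone, at a single fixed length, without genes low at D0 and with changes well beyond 2-fold. They held no spread between cultures, so they give no rate of false calls between the stages. Alternatives were pseudocounts, filters, a 4-fold threshold and other scalings. The software was Python 3.11.15 with pandas 2.3.3, numpy 2.4.6, matplotlib 3.10.9 and scipy 1.17.1.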

Additional observations from a re-analysis of the deposited data

How the results depend on the processing

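No paired analysis was possible because each stage had 1 library, and leaving out a library would leave no comparison. The counts of 7 higher genes and 1 lower gene were recomputed under the preset alternatives and stayed within 1.5 times. With a 4-fold threshold 6 genes were higher, since Vldlr had a ratio of 3.86. With Fabp3 and Fabp5 left out for their shared reads, a setting chosen after seeing the data, 0 lower genes remained, since Fabp3 was the lower one.

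Over all genes, a pseudocount of 1 gave 1455 higher and 1009 lower genes and a 4-fold threshold 1211 and 578. Chosen after seeing the data were raising values under 0.01 to 0.01 and dividing each library by its median, which gave 2836 higher and 3832 lower genes and shifted the log2 ratios by -0.35, and a ratio of 1 for ribosomal protein genes, which gave 6844 and 649. The share of higher genes among those called was 58.3% as deposited, 42.5% with the floor and 91.3% with the ribosomal setting. The counts with the floor were taken over all 23361 rows with values, which include genes at 0 in a library. The others were taken over the 14986 genes above 0 in both, so the sets of genes differ as well as the scaling.

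Counted as fragments, the FABP shares at D0 were 24.3% for Fabp3, 13.03% for Fabp4 and 61.1% for Fabp5, and at D7 they were 85.4% for Fabp4 and 14.5% for Fabp5. With a pseudocount of 0.1, the median log2 ratio was 0.47 for the FABP family, 0.34 for the other lipid binding proteins and 3.72 for the PPAR receptors. With FPKM of at least 1 in a library, it was 1.34 for the FABP family and -0.071 for the SLC27 family. For the LPL system it was then 2.47 and for the lipoprotein receptor family 0.38. The FABP value of 1.34 lay between Fabp5 (higher at D7) and Fabp7 (lower), with no gene near it. With a pseudocount of 1 the median was 0.073 for the FABP family, 0.18 for the other lipid binding proteins and 2.07 for the PPAR receptors. For the SLC27 family it was -0.031, again the value of Slc27a5 alone. Depth limits the values of Gpihbp1, Fabp7, Pmp2, Fabp12 and Apoc2, which rest on few fragments in at least 1 library.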
